A study of Mus musculus with 6 samples.

Results

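The nuclear genes of the mitochondrial respiratory chain and ATP synthase were followed in mouse embryonic stem cells carrying hairpins against Prmt6. They were taken from the array by name: every probe named with a prefix NDUFA, NDUFB, NDUFC, NDUFS, NDUFV, UQCR, COX4, COX5, COX6, COX7, COX8 or ATP5, or as SDHA to SDHD. The rule took 113 of 46643 probes, which stood for 79 of 20497 named genes. Of these, 76 genes encode subunits: 33 of complex I, 4 of complex II, 7 of complex III, 18 of complex IV and 14 of complex V. The other 3 carry such a name without encoding a subunit: Ndufaf1, an assembly factor of complex I, Emc8, printed on the array as COX4NB, and Dmac2l, printed as ATP5S. Ndufa4, named for complex I, was counted with complex IV, to which its protein is now assigned.

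The cells were CCE, a mouse embryonic stem cell line cultured feeder-free in serum-containing medium to which leukemia inhibitory factor was added. They were transfected transiently, using Lipofectamine, with the pSuper.puro plasmid carrying Prmt6 shRNA1, Prmt6 shRNA2 or, as control, GFP shRNA. All 3 groups therefore carried a hairpin plasmid and were under puromycin at 1.5 ug/ml, begun 18 h after transfection and kept for 4 days. Prmt6 encodes an arginine methyltransferase of histones, and each group had 2 Illumina bead arrays, 6 in all. A hairpin that lowers a transcript for a few days is not a deletion of the gene, and no rescue was among the samples. The labels do not say that the replicates were separate cultures, so the p-values measure only the spread between these samples, and the number of arrays limits the precision.

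Complexes I to IV of the inner mitochondrial membrane pass electrons, taken from NADH and succinate, to oxygen, and complexes I, III and IV pump protons as they do so. Complex V, the ATP synthase, lets the protons flow back and makes ATP. Most subunits are encoded in the nucleus and a few in mitochondrial DNA, so the complexes are assembled from both. In mouse embryonic stem cells the chain is active beside a high rate of glycolysis, and nuclear respiratory factor 1 (NRF1), the ETS-family factor GABP and YY1 are known regulators of many of its nuclear genes.

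Promoter sequences are shown for 3 of the 6 subunits with the lowest unadjusted p-values, because these 3 held a motif of the regulators above. The window of 300 bases around the annotated start comes from RefSeq, build GRCm38.p6, and 62 of the 76 subunits had one. The motifs searched on both strands were GCGCA followed by any base and then GCGC for NRF1, CCGGAAG for ETS factors and AAGATGGC for YY1, and matches were allowed to overlap. Ndufa11 lies at chr17:56717512-56717811 on the plus strand, Cox6b1 at chr7:30626065-30626364 on the minus strand and Cox6a1 at chr5:115348909-115349208 on the minus strand. Each line reads 5′ to 3′ along the gene, and capitals mark the motif matches.
Ndufa11: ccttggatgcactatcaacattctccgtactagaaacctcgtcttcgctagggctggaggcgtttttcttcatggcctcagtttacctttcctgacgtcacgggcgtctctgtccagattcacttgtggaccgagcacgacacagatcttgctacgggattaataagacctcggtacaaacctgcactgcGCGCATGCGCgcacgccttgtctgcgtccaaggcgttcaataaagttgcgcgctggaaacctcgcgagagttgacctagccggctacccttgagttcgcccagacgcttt
Cox6b1: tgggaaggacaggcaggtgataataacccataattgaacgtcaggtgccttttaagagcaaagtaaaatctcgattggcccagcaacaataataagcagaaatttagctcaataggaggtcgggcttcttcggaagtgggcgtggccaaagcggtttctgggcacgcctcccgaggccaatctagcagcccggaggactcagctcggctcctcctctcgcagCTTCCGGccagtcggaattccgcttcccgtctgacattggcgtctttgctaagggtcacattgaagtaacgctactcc
Cox6a1: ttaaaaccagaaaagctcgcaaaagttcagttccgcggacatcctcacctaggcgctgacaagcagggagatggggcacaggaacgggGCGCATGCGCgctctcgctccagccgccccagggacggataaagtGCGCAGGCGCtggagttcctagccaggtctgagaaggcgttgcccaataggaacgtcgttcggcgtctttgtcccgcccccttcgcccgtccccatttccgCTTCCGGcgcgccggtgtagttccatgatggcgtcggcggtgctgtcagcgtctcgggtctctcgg
The capitals in Ndufa11 are an NRF1 match at positions -60 to -51 from the annotated start. Cox6b1 has an ETS match, read on the other strand, at -28 to -22. Cox6a1 has NRF1 matches at -162 to -153 and at -117 to -108, and an ETS match on the other strand at -16 to -10. Ndufa13 and Ndufa4 each had a window with none of the 3 motifs, and Cox4i1 had no window. Among the 62 subunits with a window, 14 (22.6%) held the NRF1 motif, 14 (22.6%) the ETS motif and 8 (12.9%) the YY1 motif. Over all 27025 promoter windows of the same length, the shares were 4.78%, 9.12% and 2.88%. At least 1 of the 3 motifs stood in 33 subunit windows (53.2%), against 15.2% of all windows. A match describes the letters in the window and is not a measured binding site.

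Detection was uneven between arrays. Probes with a detection p under 0.01 numbered 6369 and 10928 with Prmt6 shRNA1, 7395 and 5782 with Prmt6 shRNA2, against 9034 and 6444 with GFP shRNA. The most were thus on Prmt6 shRNA1 replicate 2. Prmt6 shRNA2 replicate 2 had the fewest, though near 2 other arrays. It stood apart in its values, and values without it stand beside the medians, lists and genes that it moved. The targeted transcript, Prmt6, read 6.35 and 7.27 on the normalized log2 scale with Prmt6 shRNA1, 6.52 and 5.54 with Prmt6 shRNA2, against 8.37 and 8.16 with GFP shRNA. It was lower on all 4 Prmt6 shRNA arrays, and its adjusted p in limma was 0.082. Prmt6 was detected on only 3 of the 6 arrays, so the size of this lowering is not read. The embryonic stem cell label was borne out by detection of Pou5f1, Sox2, Nanog, Zfp42, Esrrb, Klf4 and Utf1 on every array, while Tdgf1 and Fgf4 were detected on none. All 8 fibroblast or feeder markers were detected on no array.

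The stem cell markers, and those of other cell types, also differed between the groups. All 7 stem cell markers had a fitted difference below 0, between -0.90 and -0.36 log2 units. None passed the test in limma, against 1.67% of all genes, and 4 had an unadjusted p under 0.05, against 14.6% of all genes. The summed normalized signal of all 7 was 17396 and 17905 with Prmt6 shRNA1, then 15087 and 16125 with Prmt6 shRNA2. It was 26983 and 21287 with GFP shRNA. The sum over 6 trophectoderm markers was 17494 and 15613, then 4634 and 4802, against 2365 and 2122 in the same order of groups. Of these, Krt7, Krt8, Krt18 and Gata3 rose in limma, against 1.67% of all genes called, while Cdx2 (0.47) and Tfap2c (0.21) did not pass. Gata3 was detected on only 2 of 6 arrays, so the size of its rise is not read. Elf5 was detected on no array. Of the 3 tested endoderm markers Gata4 rose in limma, against 1.67% of all genes called. The sum over Gata4, Gata6 and Sox17 was 1150 and 1309 with Prmt6 shRNA1, then 1829 and 2262 with Prmt6 shRNA2. It was 811 and 784 with GFP shRNA. Foxa2, Afp and Ttr were detected on no array. Without Prmt6 shRNA2 replicate 2, only Krt8 and Krt18 of these 5 called markers passed in limma (adjusted p 0.0443 for both), and Krt7, Gata3 and Gata4 had adjusted p of 0.0517, 0.0844 and 0.115. The part of these marker shifts in the respiratory chain values was not tested. In bulk RNA, fewer cells of a type and less RNA per cell cannot be told apart.

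Of the 113 probes, 74 passed the filter of detection on at least 2 arrays, and they stood for 63 genes, 61 of them subunits. Complex I kept 29 of 33 genes, complex II 3 of 4, complex III 5 of 7, complex IV 12 of 18 and complex V 12 of 14. The 15 subunit genes not tested were Ndufs1, Ndufab1, Ndufb2, Ndufb10, Sdha, Uqcrfs1, Uqcrq, Cox4i2, Cox6a2, Cox6b2, Cox7b, Cox8b, Cox8c, Atp5e and Atp5o. Several of these encode parts that every working complex needs, such as Sdha, the flavoprotein that oxidises succinate, and Uqcrfs1, the Rieske iron-sulfur protein. The first Sdha probe had background-subtracted intensities of -20.7 and -14.3 with Prmt6 shRNA1, -38.2 and -31.3 with Prmt6 shRNA2, against -31.5 and -33.5 with GFP shRNA. The single probe of Ndufs1, an iron-sulfur core subunit of complex I, likewise read -20.2 and -21.2, then -33.2 and -33.9, against -24.1 and -43.8. Both probes were below the background estimate on all 6 arrays in every group, so they give no level for these genes. One Uqcrfs1 probe read between 29.4 and 157.9 without passing detection on any array.

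No subunit passed the test in limma in any comparison. With both Prmt6 hairpins against GFP shRNA, 0 of 61 subunits had an adjusted p under 0.05, against 109 of all 6539 genes (1.67%). At an unadjusted p under 0.05 there were 6 subunits, against 14.6% of all genes, and the 6 were Ndufa11, Ndufa13, Cox4i1, Cox6a1, Cox6b1 and Ndufa4, each with a difference above 0. The median log2 difference over the subunits was 0.06, against 0.02 over all genes tested, and 37 of 61 subunits (60.7%) lay above 0, against 53.3% of all genes. On probes of the first of the array's 2 series of probe numbers alone, the 2 medians were -0.033 and -0.025. On these probes without Prmt6 shRNA2 replicate 2 the medians were -0.057 and -0.031. All 4 Prmt6 shRNA arrays were above both GFP shRNA arrays for 9 subunits (14.8%), against 15.8% of all genes. They were below both for 4 subunits (6.56%), Uqcrb, Uqcrc2 and Cox5a among them, against 8.79% of all genes. These shares lie near those of the whole array. Where detection on all 6 arrays was required, which left 4099 genes, Ndufa13 and Cox4i1 passed the test in limma with both hairpins (adjusted p 0.0177 and 0.0214). Over all alternatives their adjusted p ranged up to 0.534 and 0.642. Without Prmt6 shRNA2 replicate 2, the median was -0.012 for the subunits and -0.0018 for all genes tested, and 29 of 61 subunits lay above 0, against 49.8% of all genes. The subunits at an unadjusted p under 0.05 were then 2, Ndufa13 and Cox4i1, against 12.2% of all genes.

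**Figure D1:**
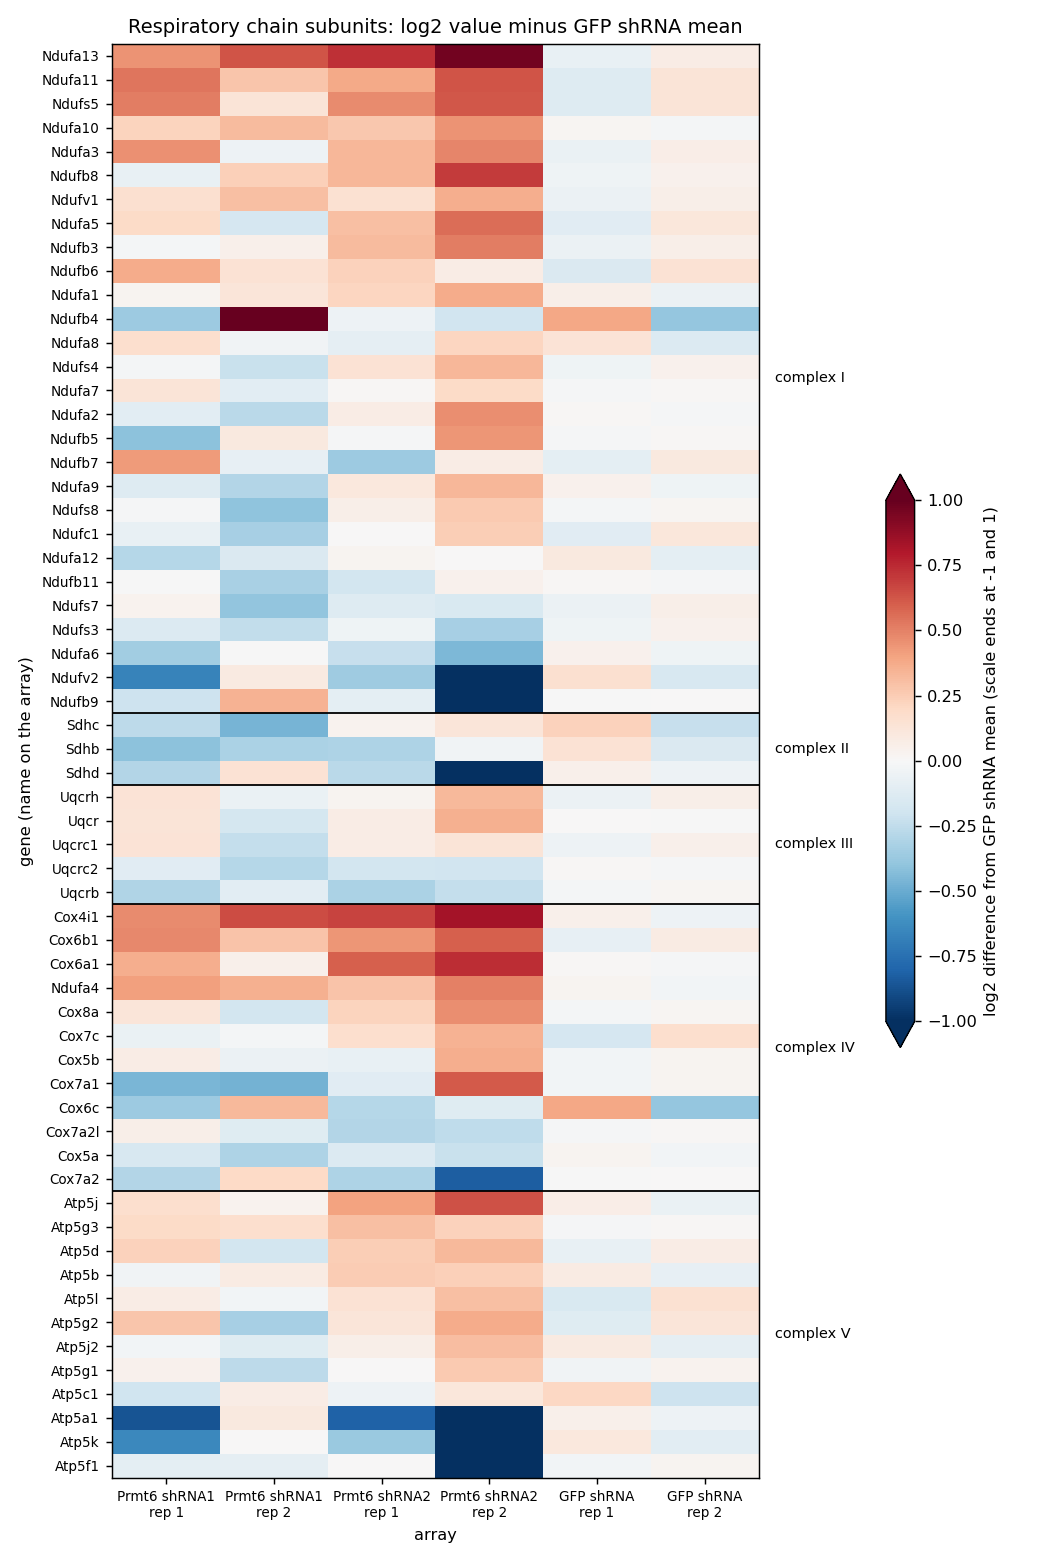
Normalized log2 value of 60 of the 61 tested subunits (down the page, by complex and then by fitted difference) on each of the 6 arrays, as the difference from the GFP shRNA mean of that gene; red is higher, blue lower, and the colour scale ends at -1 and 1. Ndufa13, Ndufa11, Cox4i1, Cox6b1 and Ndufa4 are red on all 4 Prmt6 shRNA arrays, and most dark blue cells lie on Prmt6 shRNA2 replicate 2.

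The intervals show how large a change the data leave room for. The 95% interval of the limma difference lay within 2-fold on both sides for 52 of 61 subunits (85.2%), against 4766 of 6539 genes over the array (72.9%). Within 1.5-fold it lay for 28 subunits (45.9%), against 1701 genes (26.0%). The 9 subunits with a wider interval were Ndufa13, Ndufb4, Ndufb9, Ndufv2, Sdhd, Cox4i1, Atp5a1, Atp5f1 and Atp5k. The interval of Ndufa13 ran from 0.30 to 1.09 and that of Cox4i1 from 0.28 to 1.03, so both passed 2-fold (1 log2 unit) on the upper side by little. The other 7 had intervals that included 0.

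**Figure D2:**
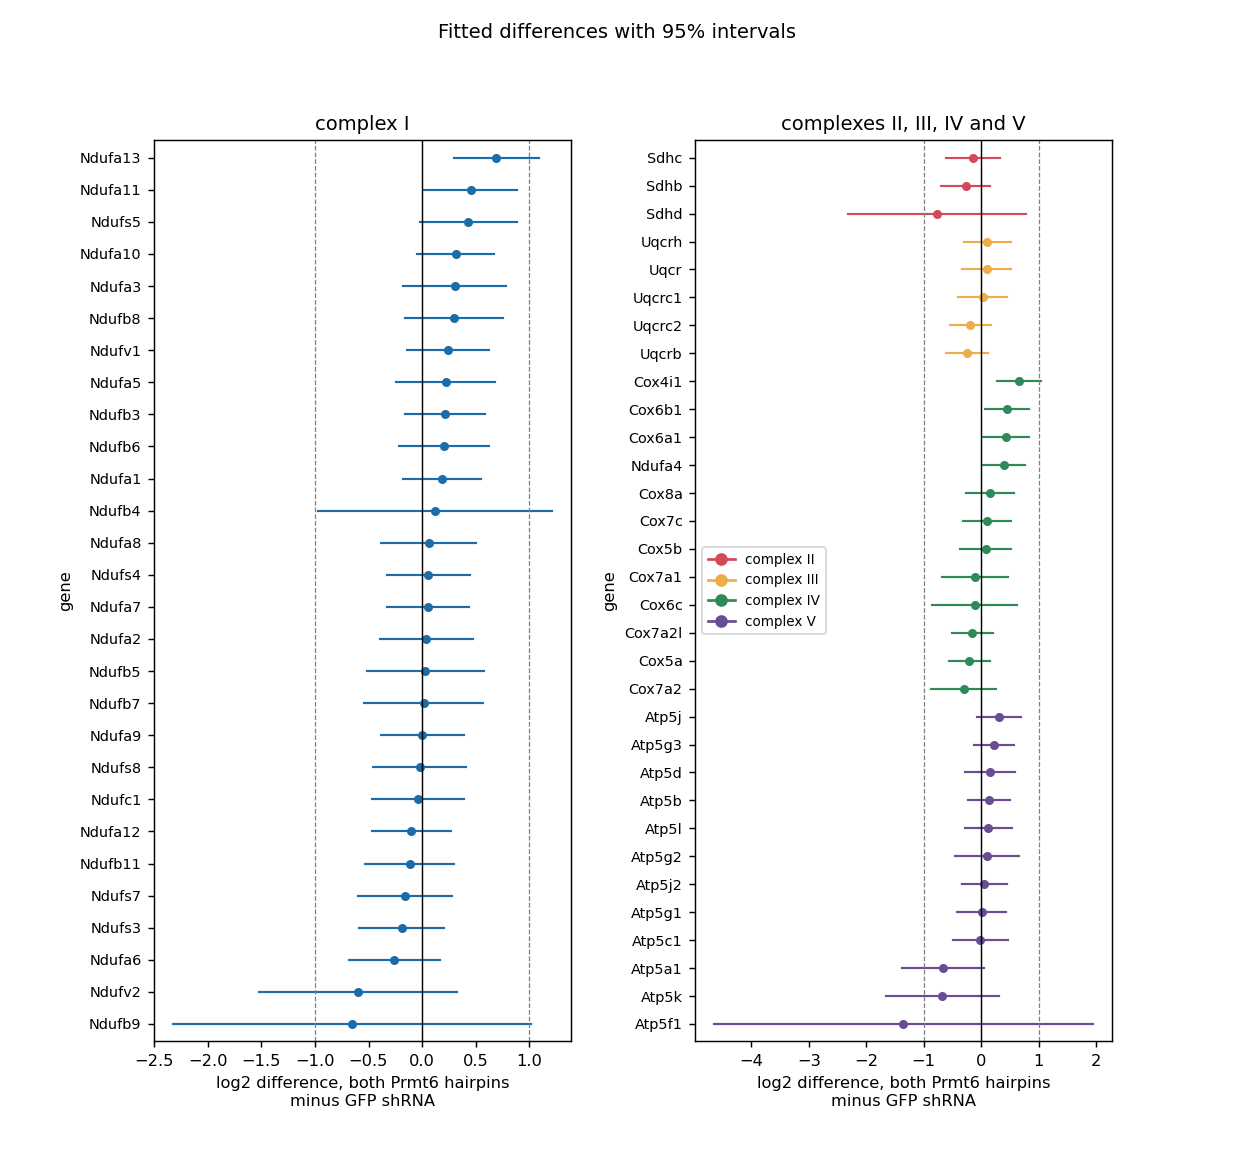
Fitted log2 difference of both Prmt6 hairpins from GFP shRNA (points) with its 95% interval (lines) for 60 of the 61 tested subunits, complex I on the left and complexes II to V on the right; the axes have different ranges, the solid line marks 0 and the dashed lines mark 2-fold. Ndufa13 (0.70) and Cox4i1 (0.66) lie farthest to the right, and Atp5f1 (-1.35) has the widest interval.

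Complex I, which oxidises NADH and passes its electrons to ubiquinone, had a median difference of 0.06 with 19 of 29 subunits above 0. The median was -0.012, with 14 above 0, when Prmt6 shRNA2 replicate 2 was left out. The highest was Ndufa13, an accessory subunit also known as GRIM-19. It read 13.11 and 13.29 with Prmt6 shRNA1, 13.39 and 13.62 with Prmt6 shRNA2, against 12.58 and 12.73 with GFP shRNA. All 4 Prmt6 shRNA arrays were higher than both GFP shRNA arrays, and both Prmt6 shRNA2 arrays were higher than both Prmt6 shRNA1 arrays. The fitted difference was 0.70 ± 0.16 (limma SE), or 1.62-fold, with an adjusted p of 0.116 and rank 304 of 6539 by p. The difference was 0.54 for Prmt6 shRNA1 and 0.85 for Prmt6 shRNA2. Without Prmt6 shRNA2 replicate 2 it was 0.64.

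Ndufa11, an accessory subunit of the membrane arm, read 11.32 and 11.06 with Prmt6 shRNA1, 11.17 and 11.42 with Prmt6 shRNA2, against 10.66 and 10.91 with GFP shRNA. The groups did not overlap, the difference was 0.45 ± 0.18, and the adjusted p in limma was 0.324. Ndufv1, the core subunit that binds FMN and takes electrons from NADH, read 12.81 and 12.95, then 12.81 and 13.01, against 12.59 and 12.71 with GFP shRNA, with a difference of 0.24. It too was higher on all 4 Prmt6 shRNA arrays, with an interval of -0.14 to 0.63. Ndufv2, an iron-sulfur core subunit, read 8.45 and 9.21 with Prmt6 shRNA1, 8.77 and 7.67 with Prmt6 shRNA2, against 9.28 and 8.96 with GFP shRNA. Ndufb9, an accessory subunit of the membrane arm, read 8.30 and 8.86, then 8.41 and 5.86, against 8.50 and 8.51 with GFP shRNA. In both genes the lowest array was Prmt6 shRNA2 replicate 2, where neither probe was detected. Their differences were -0.60 and -0.65 over all arrays, and -0.32 and -0.012 without that array.

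The core subunits of complex I, which carry the redox chemistry, were set beside the accessory ones. Of the 6 core subunits tested, 1 lay above 0, which was Ndufv1, and their median was -0.17. Of the 23 accessory subunits, 18 lay above 0, with a median of 0.06. When Prmt6 shRNA2 replicate 2 was left out, 1 core and 13 accessory subunits lay above 0, with medians of -0.14 and 0.01. These are counts of fitted values that did not pass the test, and the difference between core and accessory subunits was not tested.

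Complex II, succinate dehydrogenase, is also an enzyme of the citric acid cycle. All 3 tested subunits had differences below 0, with a median of -0.27, and none of them separated the groups. Sdhb, the iron-sulfur subunit, read 10.55 and 10.64 with Prmt6 shRNA1, 10.65 and 10.92 with Prmt6 shRNA2, against 11.10 and 10.81 with GFP shRNA. Sdhc, a membrane anchor, read 11.26 and 11.06, then 11.56 and 11.64, against 11.76 and 11.29 with GFP shRNA. In both genes the GFP shRNA arrays lay apart from each other by more than the fitted differences of -0.27 and -0.14. Without GFP shRNA replicate 1 the Sdhc difference was 0.09. Sdhd, the other anchor, read 8.36 and 8.80 with Prmt6 shRNA1, 8.38 and 6.00 with Prmt6 shRNA2, against 8.71 and 8.60 with GFP shRNA. The single low array was again Prmt6 shRNA2 replicate 2, and the difference was -0.77 with it and -0.17 without it. The median of complex II without that array was -0.17.

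Complex III, the cytochrome bc1 complex, takes electrons from ubiquinol to cytochrome c, and its 5 tested subunits had a median of 0.03, or 0.01 without Prmt6 shRNA2 replicate 2. Uqcrb, a subunit near the quinone site, read 9.73 and 9.93 with Prmt6 shRNA1, 9.72 and 9.80 with Prmt6 shRNA2, against 10.01 and 10.06 with GFP shRNA. Uqcrc2, a core protein of the matrix side, read 11.59 and 11.42, then 11.52 and 11.51, against 11.72 and 11.69 with GFP shRNA. On these probes both were lower on all 4 Prmt6 shRNA arrays, with differences of -0.24 and -0.19 and adjusted p of 0.534 and 0.609 in limma. A second Uqcrb probe, detected on all 6 arrays, gave a difference of -0.00116, and its groups overlapped. Uqcrc1, the partner core protein of Uqcrc2, had a difference of 0.03, with 11.47 and 11.09, then 11.40 and 11.46, against 11.28 and 11.37. Uqcrh, the hinge protein, read 13.17 and 12.97 with Prmt6 shRNA1, 13.06 and 13.36 with Prmt6 shRNA2, against 12.97 and 13.10 with GFP shRNA. The gene printed as UQCR, another small subunit, read 12.11 and 11.81, then 12.05 and 12.34, against 11.99 and 11.98. For these 3 genes the groups overlapped.

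Complex IV, cytochrome c oxidase, had 4 of its 12 tested subunits at an unadjusted p under 0.05, against 14.6% of all genes. These were 4 of the 6 such subunits of the whole chain, and the median of the 12 was 0.09. That median was 0.02 without Prmt6 shRNA2 replicate 2, where Cox4i1 alone of the 12 kept an unadjusted p under 0.05. Its direction turned on first-series probes (-0.042), and on these without that array (-0.069). The median over all subunits turned there too (-0.033 and -0.057). Cox4i1, the widely expressed form of subunit IV, read 14.88 and 15.06 with Prmt6 shRNA1, 15.09 and 15.24 with Prmt6 shRNA2, against 14.46 and 14.36 with GFP shRNA. The 4 Prmt6 shRNA arrays stood above both GFP shRNA arrays by more than the replicates of any group lay apart. The difference was 0.66 ± 0.15 (limma SE), or 1.58-fold, with an adjusted p of 0.116 and rank 305 of 6539. It was 0.56 with Prmt6 shRNA1, 0.75 with Prmt6 shRNA2, and 0.61 over both without Prmt6 shRNA2 replicate 2. Its counterpart Cox4i2, known from lung, was detected on no array.

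Cox6b1, a subunit of the intermembrane-space side, read 13.12 and 12.92 with Prmt6 shRNA1, 13.08 and 13.24 with Prmt6 shRNA2, against 12.56 and 12.72 with GFP shRNA. Cox6a1, the form of subunit VIa found outside muscle, read 13.36 and 13.04, then 13.59 and 13.73, against 13.00 and 12.98 with GFP shRNA. Ndufa4 read 13.88 and 13.83 with Prmt6 shRNA1, 13.75 and 13.98 with Prmt6 shRNA2, against 13.50 and 13.45 with GFP shRNA. In each of the 3 genes all 4 Prmt6 shRNA arrays were above both GFP shRNA arrays. The differences were 0.45, 0.44 and 0.39, and the adjusted p-values in limma were 0.273, 0.297 and 0.319. Cox6a1 lay farther from GFP shRNA with Prmt6 shRNA2 (0.67) than with Prmt6 shRNA1 (0.21), and the test of Prmt6 shRNA2 against Prmt6 shRNA1 gave an adjusted p of 0.423. A second Cox6a1 probe gave 0.47 and a second Cox6b1 probe gave 0.25.

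Cox5a, which lies on the matrix side of the enzyme, went the other way in its values. It read 12.71 and 12.56 with Prmt6 shRNA1, 12.73 and 12.65 with Prmt6 shRNA2, against 12.90 and 12.85 with GFP shRNA, a difference of -0.21 with an adjusted p of 0.582 in limma. Cox7a2, the form of subunit VIIa found outside muscle, read 9.10 and 9.59, then 9.09 and 8.57, against 9.39 and 9.40, a difference of -0.31, or -0.18 without Prmt6 shRNA2 replicate 2. Cox7a2l, which joins complexes III and IV in supercomplexes, read 8.74 and 8.56 with Prmt6 shRNA1, 8.39 and 8.43 with Prmt6 shRNA2, against 8.67 and 8.69 with GFP shRNA. In Cox7a2 and Cox7a2l at least 1 Prmt6 shRNA array lay above a GFP shRNA array, so the groups overlapped. Cox8a, the common form of subunit VIII, read 12.48 and 12.18, then 12.59 and 12.83, against 12.34 and 12.38, a difference of 0.16, or 0.10 without Prmt6 shRNA2 replicate 2.

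Several subunits of complex IV have forms that belong to muscle or testis. Cox6a2 and Cox8b, known from heart and skeletal muscle, and Cox8c, known from testis, were detected on no array, and Cox6b2, also known from testis, was detected on 1 array with 1 of its 2 probes. Cox7a1, the muscle form of subunit VIIa, was detected on all 6 arrays. It read 8.33 and 8.31 with Prmt6 shRNA1, 8.68 and 9.40 with Prmt6 shRNA2, against 8.76 and 8.81 with GFP shRNA. Prmt6 shRNA1 had the lowest values and Prmt6 shRNA2 replicate 2 the highest. The skeletal actin gene Acta1 was the only tested gene among 7 muscle markers. It read 11.61 and 11.25, then 7.30 and 7.30, against 6.09 and 5.70 with GFP shRNA. Acta1 was detected on only 2 of the 6 arrays, so its order across the groups is not read. Actc1, Myh3, Tnnt2, Myog and Myl1 were detected on no array and Tnnt1 on 1.

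**Figure D3:**
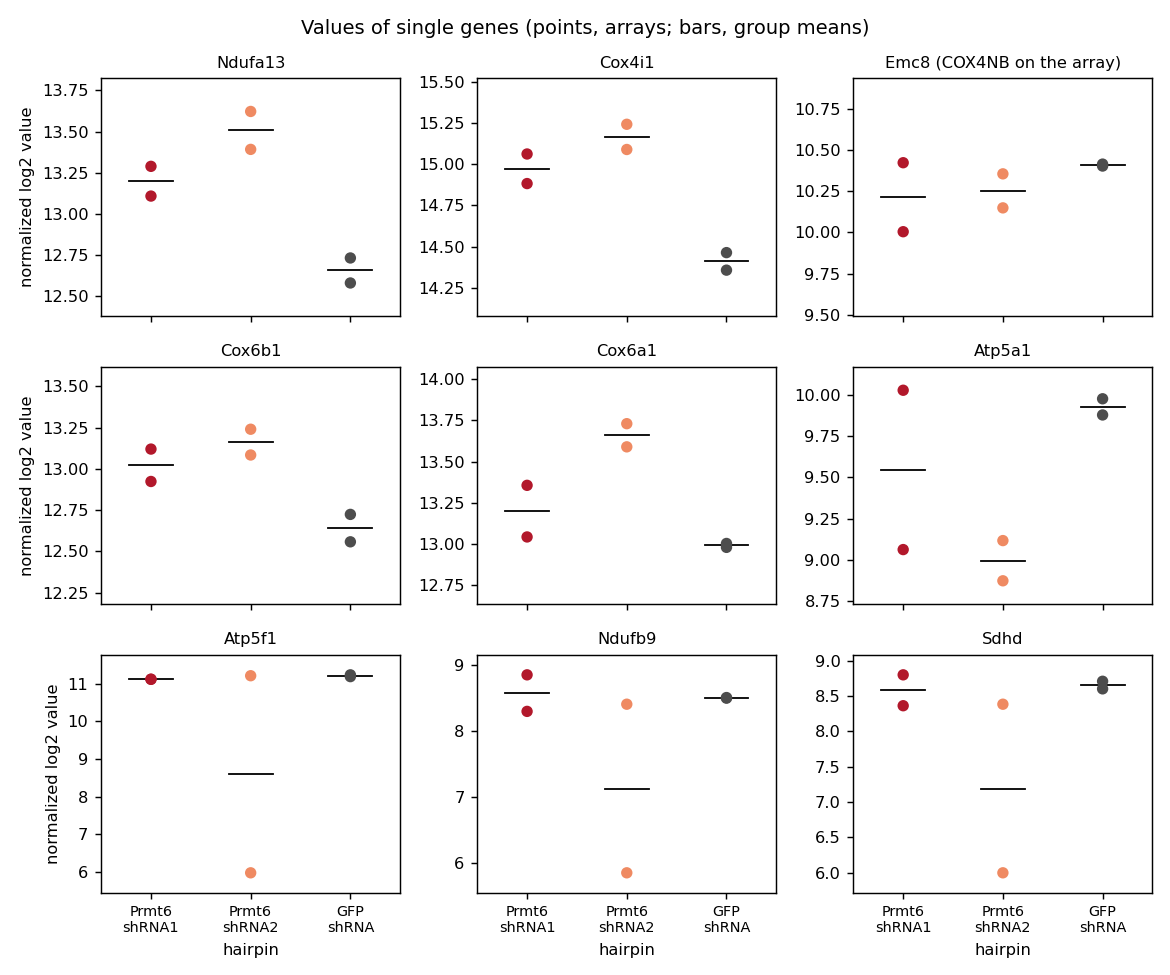
Normalized log2 values of 9 genes on each array (points) with group means (bars), in the order Prmt6 shRNA1, Prmt6 shRNA2 and GFP shRNA; each panel has its own vertical range. Ndufa13, Cox4i1, Cox6b1 and Cox6a1 are higher on all 4 Prmt6 shRNA arrays, whereas Atp5f1, Ndufb9 and Sdhd are low on 1 Prmt6 shRNA2 array.

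Complex V had a median of 0.08, with 8 of 12 tested subunits above 0. None had an unadjusted p under 0.05, against 14.6% of all genes. The median was 0.02, with 6 above 0, without Prmt6 shRNA2 replicate 2. In the catalytic F1 head, Atp5b, the beta subunit that makes ATP, read 15.05 and 15.17 with Prmt6 shRNA1, 15.34 and 15.32 with Prmt6 shRNA2, against 15.17 and 15.00 with GFP shRNA. Its partner Atp5a1, the alpha subunit, read 9.06 and 10.03, then 9.12 and 8.87, against 9.98 and 9.88 with GFP shRNA. Atp5b overlapped between the groups, while Atp5a1 was low on 3 of 4 Prmt6 shRNA arrays and level with GFP shRNA on Prmt6 shRNA1 replicate 2. Atp5a1 differed by -0.66 ± 0.29 (limma SE), with an interval of -1.37 to 0.06 and an adjusted p of 0.379.

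The membrane ring of the synthase is built from the c subunit, for which the mouse has the genes Atp5g1, Atp5g2 and Atp5g3 with the same mature protein. Atp5g3 read 14.26 and 14.24 with Prmt6 shRNA1, 14.37 and 14.30 with Prmt6 shRNA2, against 14.06 and 14.09 with GFP shRNA. Atp5g2 read 11.40 and 10.79, then 11.25 and 11.50, against 11.00 and 11.25, and Atp5g1 read 12.76 and 12.45, then 12.72 and 12.97, against 12.68 and 12.75. Atp5g3 separated the groups by a difference of 0.22, with an adjusted p of 0.543 in limma, and the groups overlapped for Atp5g1 (0.01) and Atp5g2 (0.11), whose differences without Prmt6 shRNA2 replicate 2 were -0.05 and 0.04.

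Among the parts that hold the head in place, Atp5j, coupling factor 6 of the stalk, read 8.20 and 8.06 with Prmt6 shRNA1, 8.43 and 8.67 with Prmt6 shRNA2, against 8.10 and 7.96 with GFP shRNA. Its difference was 0.31, and 0.52 with Prmt6 shRNA2 alone, where the adjusted p in limma was 0.242. Atp5f1, the b subunit of the stalk, read 11.12 and 11.12, then 11.21 and 5.98, against 11.19 and 11.23. The value on Prmt6 shRNA2 replicate 2, where the probe was not detected, went with a difference of -1.35 over all arrays, which was -0.05 without it. Atp5k, the e subunit, read 6.80 and 7.45, then 7.08 and 5.76, against 7.55 and 7.34. It was detected on neither Prmt6 shRNA2 array, as were Ndufb4 and Ndufb11, and no fold is given for these against GFP shRNA because their limit was under 1.

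**Figure D4:**
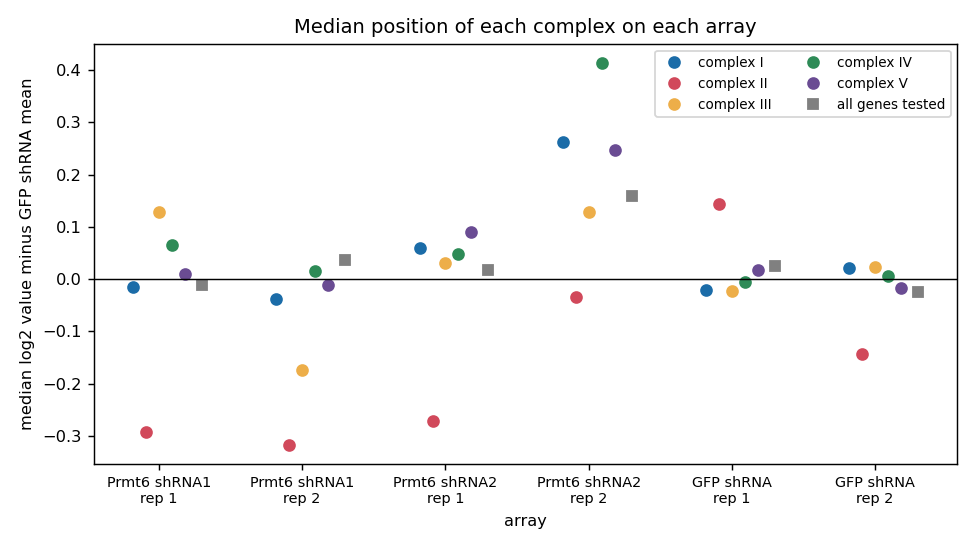
Median over the tested subunits of each complex (circles), and over all genes tested (squares), of the log2 value minus the GFP shRNA mean, on each of the 6 arrays. Complex II is lowest on all 4 Prmt6 shRNA arrays, and complexes I, IV and V and all genes are highest on Prmt6 shRNA2 replicate 2.

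The hairpins taken one at a time share the GFP shRNA arrays, and their values are set side by side. With Prmt6 shRNA1, 0 of 61 subunits passed the test in limma, against 1.32% of all genes, and the median was -0.03 over the subunits and -0.02 over all genes. With Prmt6 shRNA2, 0 passed, against 1.04% of all genes, and the medians were 0.16 and 0.08. Without replicate 2 of Prmt6 shRNA2 these medians were 0.03 and 0.02, with 0 of 61 subunits and 0 of 6526 genes called in limma, where the lone array was assumed to vary like the other groups. At an unadjusted p under 0.05, Prmt6 shRNA1 gave Ndufa13 and Cox4i1 (2 of 61, against 11.7% of all genes). Prmt6 shRNA2 gave 8 subunits, against 17.1% of all genes: Ndufa11, Ndufa13, Ndufs5, Cox4i1, Cox6a1, Cox6b1 and Atp5j above 0, and Atp5a1 below it. Without replicate 2 there were 2, Ndufa13 and Cox4i1, against 9.03% of all genes. Ndufs5, an accessory subunit of complex I, differed by 0.55 with Prmt6 shRNA2 and by 0.32 with Prmt6 shRNA1.

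Groups that did not overlap were more frequent with 2 arrays on each side. With Prmt6 shRNA1, 9 subunits were higher on both arrays than on both GFP shRNA arrays, against 23% of all genes, and 12 lower, against 19.4%. With Prmt6 shRNA2, 25 were higher (41.0%), against 32.2% of all genes, and 13 lower, against 20.2%. By complex, the medians with Prmt6 shRNA1 were 0.01, -0.36, -0.05, -0.03 and -0.04 for complexes I to V. With Prmt6 shRNA2 they were 0.16, -0.17, 0.10, 0.26 and 0.20, and without its replicate 2 they were 0.06, -0.27, 0.03, 0.05 and 0.09. Complex II was the only one with a median below 0 with both hairpins, and complex I the only one above 0 with both.

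The direct comparison of Prmt6 shRNA2 with Prmt6 shRNA1 called 0 of 61 subunits in limma, against 0.398% of all genes. Cox7a1 differed by 0.72 over all arrays, with an adjusted p of 0.396 in limma, and by 0.36 without Prmt6 shRNA2 replicate 2. Over all arrays it was the 1 subunit at an unadjusted p under 0.05, against 11.9% of all genes. There was none without Prmt6 shRNA2 replicate 2, against 5.78% of all genes. The median difference was 0.14 over the subunits and 0.06 over all genes (0.10 and 0.02 without that array). Above 0 lay 46 of 61 subunits (75.4%), against 56.7% of all genes. Both Prmt6 shRNA2 arrays were above both Prmt6 shRNA1 arrays for 24 subunits, against 26.2% of all genes, and below both for 2, against 17.9%. Taken singly against the Prmt6 shRNA1 mean, Prmt6 shRNA2 replicate 1 had 40 of 61 subunits above 0 (65.6%, against 52.4% of all genes) and replicate 2 had 46 (75.4%, against 61% of all genes).

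The lowest value of 22 of 61 subunits was on Prmt6 shRNA1 replicate 2, against 21.1% of all genes. Prmt6 shRNA2 replicate 2 carried the highest value of 35 of 61 subunits (57.4%), against 39.2% of all genes, and the lowest of 9, against 18.8%. Its gap to replicate 1 was beyond 1 log2 unit for 5 subunits, each lower on replicate 2: Atp5f1, Ndufb9, Sdhd, Atp5k and Ndufv2. Over all genes the gap was beyond 1 log2 unit for 7.49%, against 8.2% of the subunits. The SD of the difference between replicates over the subunits was 0.39 log2 units with Prmt6 shRNA1, 0.87 with Prmt6 shRNA2 and 0.22 with GFP shRNA. Subunits shared this pattern of many values slightly up and a few far down on the array with the genes at large. Atp5f1, Atp5k and Ndufv2 were measured by probes of the second of the array's 2 series of probe numbers, as were Atp5l, Cox7c and Ndufb6, while Ndufb9 and Sdhd were not.

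**Figure D5:**
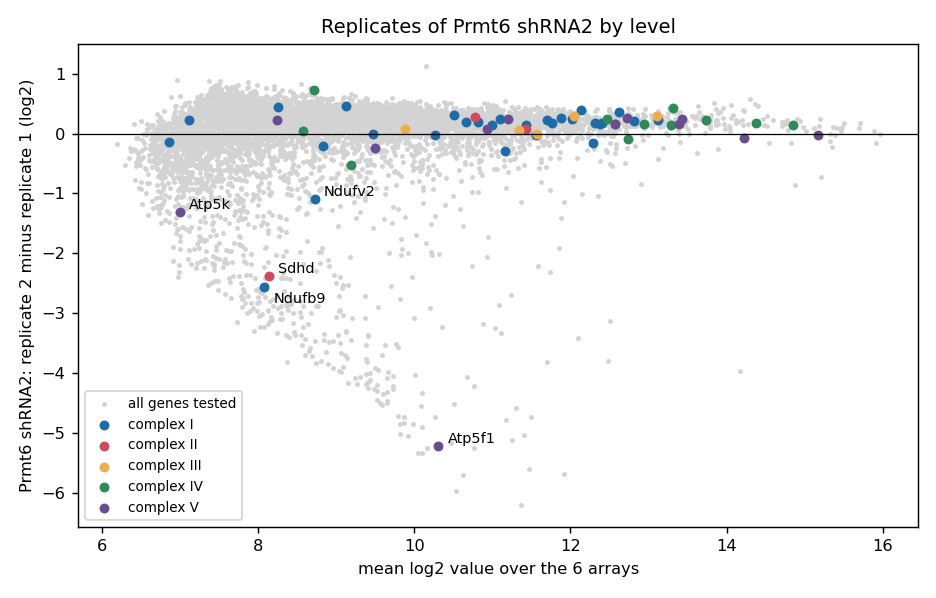
Difference between the replicates of Prmt6 shRNA2 (vertical, log2) by mean log2 value over the 6 arrays (horizontal) for the tested subunits, coloured by complex, and for all genes tested (grey). Atp5f1, Ndufb9, Sdhd, Atp5k and Ndufv2 lie more than 1 below 0, and 43 of 61 subunits lie above it, against 4471 of 6539 genes.

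The differences went with the signal of the probe. Among the 30 subunits brighter than the median subunit, 25 lay above 0, with a median of 0.12. Among the other 31, 12 lay above 0, with a median of -0.12. The Spearman correlation of the difference with the mean level was 0.56 over the 61 subunits and 0.10 over all 6539 genes, a description over genes that share the same 6 arrays. Without Prmt6 shRNA2 replicate 2, 20 of the brighter 30 and 9 of the other 31 lay above 0, and the correlations were 0.52 and 0.03. The subunits had a median level of 11.56, against 8.82 over all genes tested. The part of signal strength in the values of Cox4i1, Ndufa13, Cox6a1, Cox6b1 and Ndufa4, all among the brighter 30, was not tested.

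Of 9 subunit genes with several probes above background, 6 had all their probes on one side of 0. Uqcrb was counted among the 6, though its second probe gave only -0.00116. The exceptions were Cox5b, Ndufa5 and Ndufs4. Ndufs4, an accessory subunit of the electron-input arm, had probes with differences of 0.06, -0.15 and -0.90. The last of these read 11.42 and 11.79 with Prmt6 shRNA1, 11.51 and 8.01 with Prmt6 shRNA2, against 11.74 and 11.43 with GFP shRNA. Its low value was on Prmt6 shRNA2 replicate 2 alone, where the brightest Ndufs4 probe read 12.05, its highest. Without that array the 3 differences were 0.01, -0.03 and -0.09. The 2 Cox7c probes gave 0.11 and 0.11.

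Subunits with and without the promoter motifs shown above were set side by side. The 30 tested subunits with at least 1 of the 3 motifs had a median of 0.08, and the 22 with a window and none of them had 0.07. With the NRF1 motif the median was 0.11 (12 subunits), with the ETS motif 0.10 (13 subunits) and with the YY1 motif 0.03 (8 subunits). The range with any motif ran from -1.35 to 0.45, and with none from -0.60 to 0.70. Without Prmt6 shRNA2 replicate 2 the medians were 0.02 with any motif and -0.01 with none, then 0.10 with the NRF1 motif, 0.02 with the ETS motif and -0.03 with the YY1 motif.

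Emc8, which the rule took under its older name, is a protein-coding neighbour of Cox4i1 by gene order in the RefSeq annotation, as is Irf8. Emc8 encodes a part of a membrane-protein insertion complex of the endoplasmic reticulum. It read 10.42 and 10.00 with Prmt6 shRNA1, 10.15 and 10.35 with Prmt6 shRNA2, against 10.40 and 10.41 with GFP shRNA. Its difference was -0.18, beside 0.66 for Cox4i1. The log2 value of Cox4i1 minus that of Emc8, of which only the change between groups can be read, was 4.84 ± 0.26 over the Prmt6 shRNA arrays (SD, n = 4) and 4.00 ± 0.08 over the GFP shRNA arrays (SD, n = 2). It was higher on 4 of 4 Prmt6 shRNA arrays, which pool 2 hairpins, by 0.83. The two-sided exact permutation p was 0.133, the smallest this design allows. Cox4i1 alone already separated the groups and Emc8 was chosen after its values were seen, so this p is no separate support. Ndufaf1, the assembly factor, had a difference of 0.17, with values of 9.85 and 9.97, then 9.88 and 10.00, against 9.72 and 9.79.

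Other genes of the pathway were read from lists. Over all genes tested, 1.67% passed in limma and 14.6% had an unadjusted p under 0.05 with both hairpins. Of 4 chain genes outside the name rule, 0 passed, 0 had an unadjusted p under 0.05, and the median was 0.10, or 0.01 without Prmt6 shRNA2 replicate 2. They were Cycs, which is cytochrome c itself (-0.14), Cyc1, the cytochrome c1 of complex III (0.03), Uqcr10 (0.16) and Atpif1, the inhibitor of the ATP synthase (0.31). Of 36 tested assembly factors 0 passed (against 1.67% of all genes), 2 had an unadjusted p under 0.05 (against 14.6%), and the median was -0.08, or -0.10 without that array. Timmdc1, a complex I assembly factor, was the highest at 0.64, and its 4 Prmt6 shRNA arrays were above both GFP shRNA arrays. Ttc19, a factor of complex III, followed at 0.52. Ndufaf2 (-1.34), Cox18 (-1.15) and Sdhaf1 (-1.05) were the lowest, and each had its low value on Prmt6 shRNA2 replicate 2, which read 6.43, 5.72 and 5.87 there. Without that array their differences were -0.33, -0.15 and -0.33.

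Of 12 tested regulators of mitochondrial biogenesis and mitochondrial DNA upkeep, 0 passed in limma (against 1.67% of all genes), 1 had an unadjusted p under 0.05 (against 14.6%), and the median was 0.00398. With Prmt6 shRNA2 replicate 2 left out, none had an unadjusted p under 0.05 and the median was -0.06. Tfam, which packages mitochondrial DNA and starts its transcription, read 9.73 and 9.57 with Prmt6 shRNA1, 9.56 and 9.44 with Prmt6 shRNA2, against 10.02 and 9.88 with GFP shRNA. It was lower on all 4 Prmt6 shRNA arrays, with a difference of -0.38 and an adjusted p of 0.339 in limma. Ssbp1 had the lowest difference of the list, -1.55, or -0.41 without Prmt6 shRNA2 replicate 2. Nrf1 itself differed by 0.29 and Gabpa by -0.12, while Ppargc1a, Ppargc1b and Yy1 were detected on no array. Of 15 tested genes of pyruvate dehydrogenase and the citric acid cycle, 0 passed in limma (against 1.67% of all genes), 0 had an unadjusted p under 0.05 (against 14.6%), and the median was -0.14, or -0.12 without that array. Idh2 (-1.38), Fh1 (-0.92) and Mdh2 (-0.76), dehydrogenases and the fumarase of the cycle, read 5.79, 5.82 and 6.34 on Prmt6 shRNA2 replicate 2, their lowest array. Without it the differences were -0.42 for Idh2, -0.26 for Fh1 and 0.17 for Mdh2.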

How the data were processed

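RNA from 6 samples in 3 hairpin groups was measured on Illumina mouse bead arrays. The authors deposited a mean bead intensity per probe and array, from which background had been subtracted, and per the file headers a detection score from 0 to 1, a fraction read here as 1 minus the detection p. They also deposited log2 values, for which the submitters' processing notes name lumi. The array build and the lumi version are not given in the sources used here.

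Intensities were corrected and quantile-normalized with neqc (limma 3.58.1, R 4.3.3, offset 16). Probes with a detection p under 0.01 on at least 2 of 6 arrays were kept, and the brightest stood for each gene, leaving 6539 genes. A group-means model over all 6 arrays (lmFit and eBayes, with 3 residual and 2.81 prior degrees of freedom) gave two-sided p-values, Benjamini-Hochberg adjusted over all genes and called under 0.05. The fit was tested on simulated data in which each gene had the same spread on all 6 arrays. That setting held no array that stood apart, so it does not test the fit for Prmt6 shRNA2 replicate 2. The smallest p that exact permutation can give is 0.133 with 4 arrays against 2, and 0.333 with 2 against 2. Names were matched through RefSeq tables (GRCm38.p6). No proteins or genome were used here. The values of 1 gene are not reported here, though counts and medians include it.

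The members and lists were chosen with earlier results of these data known. Genes were named by rule: the 2 highest and 2 lowest fitted differences of each complex, 10 key subunits and the tissue-specific paralog sets. Ndufs5, the non-subunits and the examples from lists beyond the rule's extremes were chosen after their values were seen. Replicate numbers did not pair the samples: deviations of same-numbered arrays correlated at -0.36 (Prmt6 shRNA1 and Prmt6 shRNA2), -0.65 (Prmt6 shRNA1 and GFP shRNA) and 0.12 (Prmt6 shRNA2 and GFP shRNA). The negative values mean that arrays of unlike number tended to deviate alike, and the cause was not tested. The alternatives covered normalization, offset, detection filter, choice of probe, probe series, each array left out, and a replicate block.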

Additional observations from a re-analysis of the deposited data

How the results depend on the processing

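Over 16 alternatives and 4 comparisons, 59 of 64 counts of subunits called in limma were 0, as reported. Requiring detection on all 6 arrays, which cut the genes tested to 4099 and raised the calls over all genes to 302, called 2 subunits with both hairpins (Cox4i1 and Ndufa13) and 4 with Prmt6 shRNA2 (Atp5a1, Cox4i1, Cox6a1 and Ndufa13). Leaving out single arrays gave 0 to 3 with both hairpins, 0 to 4 with Prmt6 shRNA2 and 0 to 3 for Prmt6 shRNA2 against Prmt6 shRNA1. The counts above 0 came without Prmt6 shRNA2 replicate 1, which left replicate 2 as the lone Prmt6 shRNA2 array, assumed to vary like the other groups, and took in Atp5f1 (-2.66), Sdhd (-1.37) and Ndufb9 (-1.29). Calls over all genes with both hairpins numbered 109. They were 195 on the authors' deposited log2 values, 23 after quantile normalization of floored intensities, 163 with an offset of 50, 26 with no filter on dim probes, 29 when every kept probe was tested and 129 on the mean of a gene's probes. They were 273 on first-series probes alone, 37 on these without Prmt6 shRNA2 replicate 2, and 0 to 453 with single arrays left out. With a replicate block, the paired fit, 0 genes and 0 subunits were called in limma. The median of complex IV was -0.042 on first-series probes and -0.069 on these without Prmt6 shRNA2 replicate 2. Over all subunits the medians were then -0.033 and -0.057, against -0.025 and -0.031 over all genes. With single arrays left out, the median of complex III ran from -0.069 to 0.12. Of 30 named genes, 23 kept their sign under every alternative run. Ndufa13 ranged from 0.58 to 0.77 (adjusted p in limma 0.0177 to 0.534) and Cox4i1 from 0.54 to 0.71 (0.0214 to 0.642). The sign turned under at least 1 alternative for Sdhc, Uqcr, Uqcrh, Uqcrc1, Cox7a1, Atp5g1 and Atp5g2. The cause of these shifts was not tested. Dim probes such as Atp5k and Ndufb4, near the background, limit what can be read for those genes.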

Other observations

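Some subunit genes start back to back with another gene. In the RefSeq annotation, 16 of the 62 subunits with a promoter window had a protein-coding or other gene on the opposite strand starting within 1000 bases, and in 9 of these pairs both genes were tested. The differences of both Prmt6 hairpins from GFP shRNA had the same sign in 4 pairs and opposite signs in 5 (3 and 6 without Prmt6 shRNA2 replicate 2), and no gene of a pair passed the test in limma. Ndufa11 (0.45) stood 63 bases from the start of Vmac (0.30). Atp5j (0.31) stood 148 bases from Gabpa (-0.12), which encodes a subunit of the regulator GABP. Ndufa4 (0.39) stood 379 bases from Phf14 (-0.08), and Sdhd (-0.77, or -0.17 without Prmt6 shRNA2 replicate 2) stood 52 bases from Timm8b (0.18, or 0.11 without that array). These are pairs chosen by position, and no cause was tested.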
